A study of Homo sapiens with 16 samples.

Results

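Histone genes encode the proteins around which DNA is wound, and 74 of the 18132 genes measured here belong to them. They were chosen by symbol alone, as every gene whose annotated name carries a prefix of the histone H1, H2A, H2B, H3 or H4 families. Of 77 matching symbols, 1 antisense RNA and 2 pseudogenes were set aside. The members comprise 62 replication-dependent genes and 12 variant genes. On the chromosomes, 54 lie on chromosome 6 and 8 on chromosome 1. Each gene was read from the probe set that names it alone and has the highest mean over the 16 arrays.

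All arrays came from HEK293, a human embryonic kidney cell line, transfected for 24 h with 500 ng per well of plasmid DNA that encodes MR, the mineralocorticoid receptor made by the gene NR3C2. The cells then received, for 4 h, 100 nM deoxycorticosterone acetate (DOC, an MR agonist) plus 10 nM PMA (a phorbol ester and protein kinase C activator), PMA alone, DOC alone or vehicle. Each of these 4 groups held 4 arrays. The series title places its question in MR signalling through AP-1 and in inflammation. Every group carried the plasmid and none without it was analysed here, so a response that needs MR cannot be told apart from one through the cells' own receptors. The labels number the arrays as biological replicates without saying whether they were separate cultures, so p-values measure the spread between these arrays, which may be partly technical.

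Replication-dependent histone genes are expressed mainly during S phase, when new DNA must be packaged, and most lie in clusters as many near-identical copies. Their mRNAs end in a conserved stem-loop bound by SLBP instead of a poly(A) tail, and they carry no introns. Variant histone genes, such as those of H2A.Z and H3.3, make polyadenylated mRNAs throughout the cell cycle and supply histones outside replication. H1 is the linker histone that binds where DNA enters and leaves the nucleosome, while H2A, H2B, H3 and H4 form its core. The labelling kit starts from poly(A) tails, so for replication-dependent genes the arrays read only what that step copied. The bearing of this on their signals was not tested.

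Values are log2 RMA signals, the deposited unit, and differences are log2 differences between group means. Signals of different genes come from different probes, so no level is set against another gene's. The array medians were 4.91 to 4.96, and 24 members, 19 replication-dependent and 5 variant, had a mean over 16 arrays at or above the highest of them. They are called members above the array medians. The other 50 lay below, among them all 9 members that are known mainly from testis or oocyte. For H3-3A, which encodes the same H3.3 protein as H3-3B, the only single-gene probe set averaged 1.79, near the lowest value in the table, 1.21. Probe sets that name several genes were left out of this choice, and the brightest with a histone averaged 12.86. The value of 1.79 thus does not show that H3-3A was absent.

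Across the whole series, arrays of a group correlated at 0.995 to 0.998. In 3 groups 1 array deviated in a shared way (replicate 2 of PMA, replicate 1 of DOC and replicate 2 of DOC plus PMA), with correlations of 0.336 to 0.447. For several members the values without these arrays are given as well. FOS, an early target of phorbol esters, was higher with PMA than with vehicle by 5.65 ± 0.11 (SE, n = 4 each, limma adjusted p = 1.22e-17). FKBP5, a steroid target, was higher with DOC than with vehicle by 0.58 ± 0.08 (adjusted p = 0.00204). Of 3 treatment controls, FOS, FKBP5 and NR3C2, 2 rose and 0 fell with PMA against vehicle. With DOC plus PMA against DOC 2 rose and 1 fell, and with DOC against vehicle 1 rose and 0 fell. All 5 HEK293 markers lay above the array medians, and none of the 10 leukocyte, endothelial or fibroblast markers did.

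The sequences before the start sites of 7 members that fell with PMA are shown because they hold the elements for which histone promoters are known, and because some are shared by a pair of genes. RefSeq promoters of GRCh38.p14 matched 68 of the 74 members. Each sequence runs 5′ to 3′ on the gene's strand and ends at the base before its start. Capitals mark matches, on either strand, to CCAAT (bound by NF-Y), to the octamer ATTTGCAT (bound by OCT1), to TATAAA, or to a serum response element. The windows are chr6:26056471-26056720 for H1-2 (minus strand), chr3:129316287-129316536 for H1-10 (minus strand), chr6:26123927-26124171 for H2AC6 (plus strand), chr6:27132796-27133042 for H2AC11 (plus strand), chr6:26157871-26158120 for H2BC5 (plus strand), chr1:149886683-149886917 for H2BC21 (minus strand) and chr6:27809801-27810050 for H3C10 (plus strand).
H1-2: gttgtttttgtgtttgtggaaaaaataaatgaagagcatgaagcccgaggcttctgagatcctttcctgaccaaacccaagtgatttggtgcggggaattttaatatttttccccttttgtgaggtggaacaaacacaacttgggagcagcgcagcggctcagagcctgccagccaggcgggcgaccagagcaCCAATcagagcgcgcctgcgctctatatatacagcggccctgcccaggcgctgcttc
H1-10: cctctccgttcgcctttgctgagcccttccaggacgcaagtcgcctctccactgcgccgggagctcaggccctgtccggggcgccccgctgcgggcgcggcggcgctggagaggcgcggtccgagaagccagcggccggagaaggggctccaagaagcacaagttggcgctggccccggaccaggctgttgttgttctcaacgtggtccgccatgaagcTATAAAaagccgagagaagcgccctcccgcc
H2AC6: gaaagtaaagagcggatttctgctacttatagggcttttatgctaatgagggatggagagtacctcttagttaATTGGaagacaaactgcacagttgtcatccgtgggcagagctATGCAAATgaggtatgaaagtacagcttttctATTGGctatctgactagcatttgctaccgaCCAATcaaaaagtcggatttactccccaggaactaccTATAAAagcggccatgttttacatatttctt
H2AC11: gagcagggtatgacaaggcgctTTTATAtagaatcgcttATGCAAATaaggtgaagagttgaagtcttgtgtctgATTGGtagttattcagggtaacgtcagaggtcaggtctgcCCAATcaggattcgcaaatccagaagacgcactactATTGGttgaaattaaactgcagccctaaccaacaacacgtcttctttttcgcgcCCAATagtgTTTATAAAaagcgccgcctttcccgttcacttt
H2BC5: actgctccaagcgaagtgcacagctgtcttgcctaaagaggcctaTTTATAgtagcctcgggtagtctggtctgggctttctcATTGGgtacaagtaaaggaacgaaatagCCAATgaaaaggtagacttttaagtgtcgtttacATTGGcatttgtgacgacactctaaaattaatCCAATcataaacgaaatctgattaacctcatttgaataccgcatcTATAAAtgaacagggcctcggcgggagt
H2BC21: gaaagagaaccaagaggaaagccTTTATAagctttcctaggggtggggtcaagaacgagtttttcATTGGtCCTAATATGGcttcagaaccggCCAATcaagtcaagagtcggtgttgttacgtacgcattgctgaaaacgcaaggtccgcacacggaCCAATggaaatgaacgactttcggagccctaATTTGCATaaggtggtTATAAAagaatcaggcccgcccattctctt
H3C10: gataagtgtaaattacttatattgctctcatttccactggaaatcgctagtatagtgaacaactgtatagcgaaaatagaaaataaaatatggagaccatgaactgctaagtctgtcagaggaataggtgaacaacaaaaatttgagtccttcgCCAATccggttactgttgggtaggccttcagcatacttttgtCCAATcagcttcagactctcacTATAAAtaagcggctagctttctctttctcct

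The windows of H2AC6, H2AC11 and H2BC21 are shorter than 250 bases because a neighbour transcribed the other way starts there. The H2AC6 window is also the promoter of H2BC4, read from the other strand, and the starts lie 246 bases apart. The H2AC11 window is shared with H2BC11 and the H2BC21 window with H2AC20. The octamer stands in all 3 shared windows and in none of the other 4 printed ones. H2BC21 alone of the 7 also holds a serum response element.

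Motifs were counted in the full 250 bases before the first listed start, before any shortening for print. The octamer stood mostly in H2A and H2B promoters, where 11 of 14 replication-dependent H2A promoters (78.6%) and 14 of 18 replication-dependent H2B promoters (77.8%) held it. It stood in 1 of 9 replication-dependent H3 promoters, 0 of 10 H4 promoters, 0 of 6 replication-dependent H1 promoters and 1.66% of all 27305 promoters of the same length. The H3 promoter is that of H3C4, whose first listed start is also that of H2AC7, so it is the same window counted again. H2A and H2B pairs share these bases too, so the counts are not independent. CCAAT stood in 87.7% of replication-dependent and 90.9% of variant promoters, but in 3 of 10 H4 promoters, against 33.0% of all promoters. TATAAA stood in 64.9% of replication-dependent and 45.5% of variant promoters, against 11.1% of all promoters.

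Elements linked to PMA signalling stood in fewer of the 68 member promoters than the octamer, CCAAT or TATAAA did. Set against all promoters, they went in both directions. The AP-1 letters TGACTCA were in 0 of the 68 member promoters, against 4.16% of all promoters. The cyclic AMP element TGACGTCA, which does not contain those letters, stood in 7 of 68 (10.3%), against 1.77% of all. A serum response element stood in 2 of 68, against 1.14%, and the EGR letters GCGGGGGCG in 1 of 68, against 4.68%. The octamer stood in 4 of the 10 promoters of members that fell with PMA and in 7 of the 16 of other members above the array medians. A match is a description of these letters in the 250 bases before a start, and no match says nothing of binding elsewhere.

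**Figure D1:**
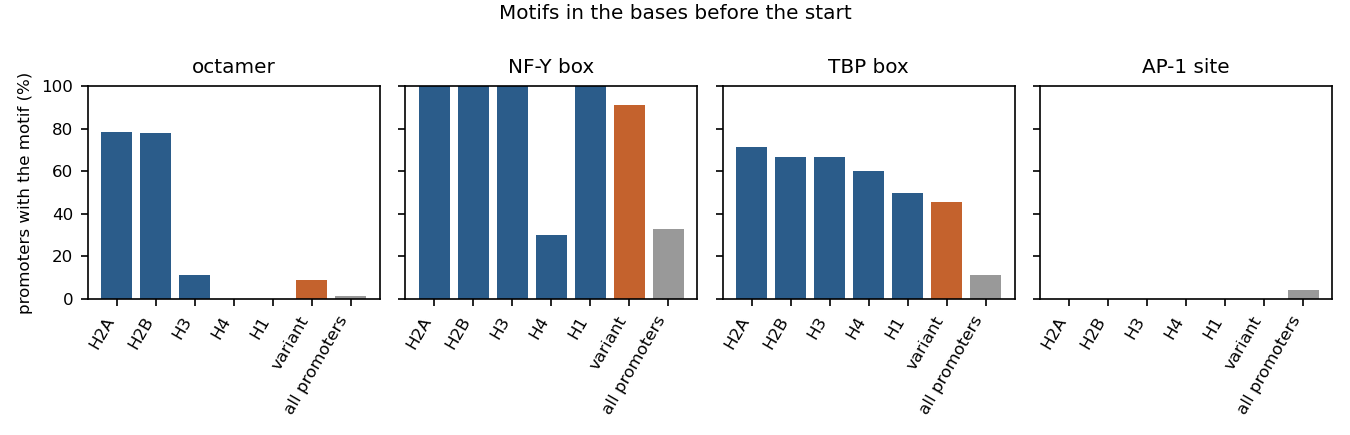
Share of promoters, in percent, that hold a motif in the 250 bases before the start, for the replication-dependent H2A, H2B, H3, H4 and H1 genes (blue), variant histone genes (orange) and all 27305 promoters (grey). The panel headed NF-Y box shows the CCAAT letters and the panel headed TBP box the TATAAA letters. The octamer bar is near 80 for H2A and H2B and at 0 for H4 and H1, and no histone group has an AP-1 bar.

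PMA alone was associated with lower signals of 11 histone genes and a higher signal of 1. The 11 that fell against vehicle were the linker histones H1-2 and H1-10, the H2A genes H2AC6, H2AC11, H2AC15 and H2AJ, the H2B genes H2BC4, H2BC5 and H2BC21, the H3 gene H3C10 and the H4 gene H4C3. H2BC14 rose. The falls ranged from 0.23 to 0.67 on the log2 scale. Of all 18132 genes, 19.6% fell and 12.6% rose in this comparison, so the 14.9% of members that fell lies near the background and is no result about histone genes as a group. When the arrays were scaled to a common median, which adds 0.107 to every difference, 7 members fell and 5 rose. Under that scaling 13.4% of all genes fell and 4550 of the 18132 rose. The calls of H1-10, H2AJ, H2AC15 and H4C3 ended there (adjusted p from 0.0805 to 0.202), while H3-3B passed at 0.19 (adjusted p = 0.0238). The arrays measure bulk RNA, in which fewer cells of a type and less RNA per cell cannot be told apart.

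By class, 9 of the 62 replication-dependent genes fell and 1 rose, and 2 of the 12 variant genes fell. Above the array medians, 7 of 19 replication-dependent genes fell (36.8%) and 1 of 5 variant genes, beside 29.6% of all genes at that level. None of the 24 rose, beside 17% of all genes at that level. The median change was -0.23 for the 19 replication-dependent genes and -0.04 for the 5 variant genes, beside -0.06 for all genes above the array medians. Over all 62 replication-dependent and 12 variant genes the medians were -0.06 and 0.01. The classes differ in number and in signal, and no test of the difference between them was made. All 4 PMA arrays lay below all 4 vehicle arrays for 10 of the 74 members, beside 18.6% of all genes. Of the 11 genes that fell, 7 were read from probe sets whose suffix (s_at or x_at) marks probes that can also match similar transcripts, namely H2AC6, H3C10, H1-2, H1-10, H4C3, H2BC4 and H2AJ. For 5 of these no probe set of another kind names the gene alone. Of the others, H3C10 fell by 0.51 (adjusted p = 0.000626) without such probe sets and H1-10 did not pass.

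**Figure D2:**
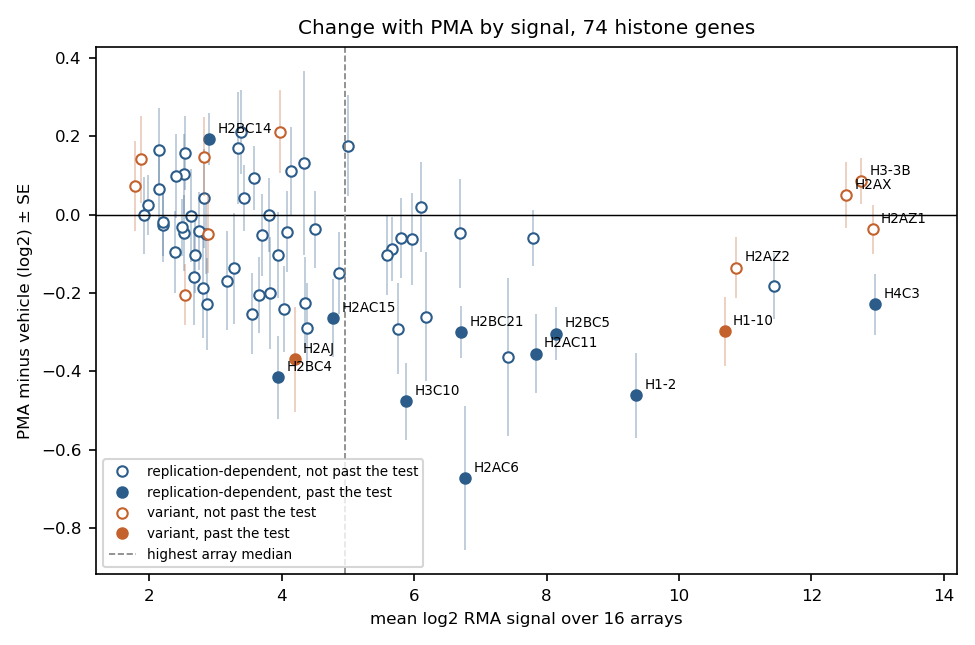
Log2 difference, PMA minus vehicle, with its SE (vertical axis), against the mean log2 RMA signal over 16 arrays (horizontal axis) for the 74 histone genes, coloured by class, with filled points past the test. Right of the dashed line at the highest array median, 8 of 24 genes are filled and all 8 lie below 0, and the variant genes H2AZ1, H3-3B, H2AX and H2AZ2 lie near 0 with open points.

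Among the linker histones, H1-2, a replication-dependent somatic H1, had 9.17, 9.01, 9.24 and 9.16 in the PMA arrays, against 9.69, 9.70, 9.49 and 9.54 with vehicle. Every PMA array lay below every vehicle array. H1-2 fell by 0.46 ± 0.11 (95% interval -0.69 to -0.23, adjusted p = 0.0026), to 0.726 of the vehicle signal. H1-10, the variant also called H1X, had 10.40, 10.64, 10.42 and 10.56 with PMA, against 10.82, 10.93, 10.92 and 10.54 with vehicle. Here vehicle replicate 4 lay among the PMA arrays, so the groups overlapped. H1-10 fell by 0.30 ± 0.09 (95% interval -0.48 to -0.11, adjusted p = 0.0125). The other H1-10 probe set, dim at 4.17, gave -0.06 ± 0.10 and did not pass.

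H2AC6 showed the largest difference of the 74 members. Its signals were 6.60, 6.08, 6.71 and 6.45 in the PMA arrays, against 7.33, 7.41, 6.89 and 6.92 with vehicle. All PMA arrays lay below all vehicle arrays, and PMA replicate 2 was the lowest. H2AC6, a replication-dependent core H2A gene, fell by 0.67 ± 0.18 (95% interval -1.06 to -0.29, adjusted p = 0.00772), to 0.627 of the vehicle signal. Without PMA replicate 2, one of the arrays that deviated together, the fall was 0.55 and still passed. The second H2A gene above the array medians that fell was H2AC11, with 7.68, 7.81, 7.52 and 7.54 in the PMA arrays, against 7.99, 7.98, 7.87 and 8.13 with vehicle. These groups did not overlap either, and the fall was 0.35 ± 0.10 (95% interval -0.57 to -0.14, adjusted p = 0.011). The other H2AC11 probe set, dim at 4.44, also fell, by 0.41 ± 0.12 (limma adjusted p = 0.013 over 49293 probe sets).

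Of the H2B genes, H2BC5 had 7.95, 8.09, 7.99 and 7.94 with PMA, against 8.35, 8.41, 8.18 and 8.24 with vehicle. It fell by 0.30 ± 0.07 (95% interval -0.45 to -0.16, adjusted p = 0.00158), without overlap between the groups. The other H2BC5 probe sets, with means of 7.64 and 7.11, gave -0.31 ± 0.13 and -0.23 ± 0.09. Neither passed (limma adjusted p = 0.0795 and 0.0604 over 49293 probe sets). H2BC21, on chromosome 1, is a cluster gene for which polyadenylated transcripts are also known. It had 6.60, 6.54, 6.63 and 6.66 in the PMA arrays, against 6.97, 6.93, 6.77 and 6.95 with vehicle. The groups stood apart and the fall was 0.30 ± 0.07 (95% interval -0.44 to -0.16, adjusted p = 0.00164). Its other probe sets, both dim at 2.63, pointed upward at 0.26 ± 0.16 without passing, and the mean of all its probe sets gave 0.07, so the direction for H2BC21 depends on which probe sets are read.

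H3C10 was the H3 gene with a fall. Its signals were 5.66, 5.47, 5.69 and 5.81 in the PMA arrays, against 6.12, 6.25, 6.04 and 6.13 with vehicle. The groups did not overlap, and the fall of 0.48 ± 0.10 (95% interval -0.68 to -0.27) had the smallest adjusted p of any member, 0.000747. H4C3, a core H4 gene, had 12.66, 13.00, 12.91 and 12.80 with PMA, against 12.91, 13.13, 13.14 and 13.10 with vehicle. Vehicle replicate 1 lay among the PMA arrays. H4C3 fell by 0.23 ± 0.08 (adjusted p = 0.03), a call that ended without any of vehicle replicates 2, 3 and 4 or PMA replicates 1 and 4 (adjusted p from 0.0653 to 0.117).

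**Figure D3:**
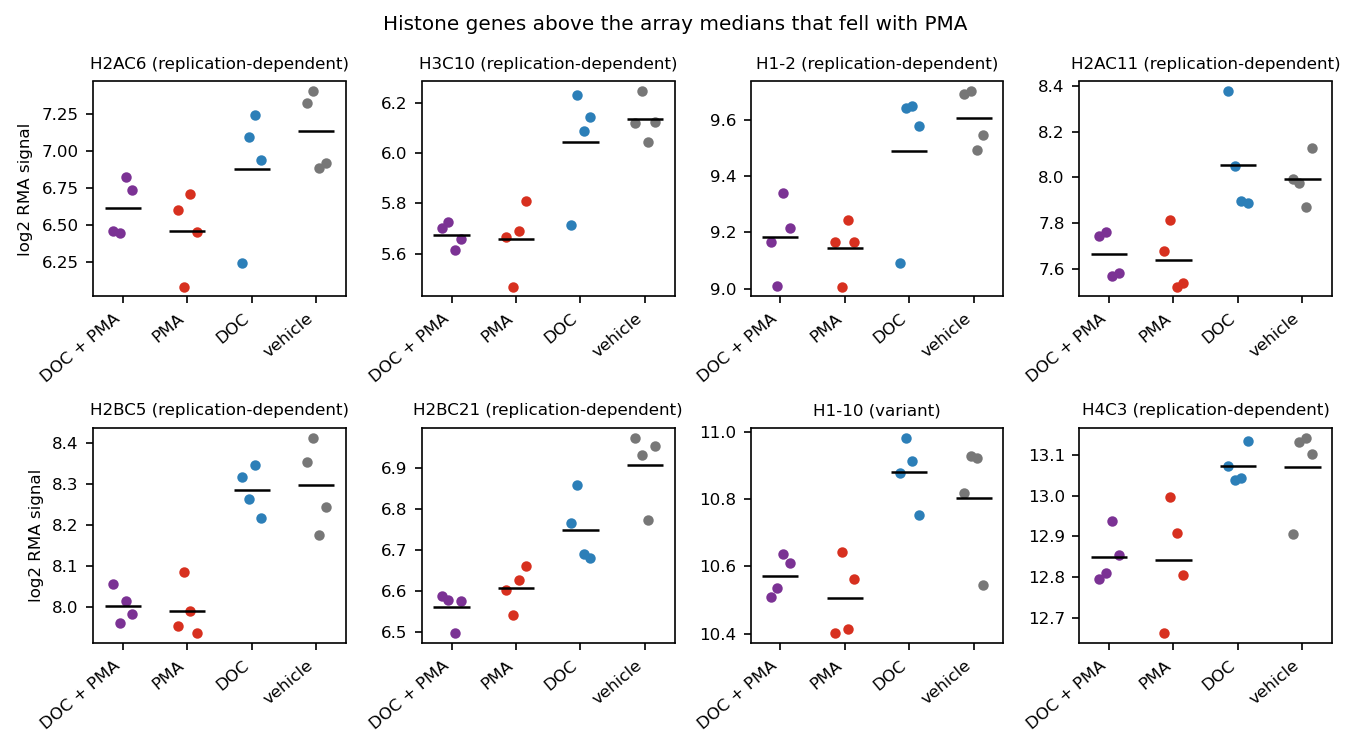
Log2 RMA signal (vertical axis, scaled separately per gene) of the 8 histone genes above the array medians that fell with PMA against vehicle, in each of the 4 arrays of DOC plus PMA, PMA, DOC and vehicle. Points are arrays and bars are group means. For H1-2, H3C10 and H2AC6 1 DOC array, replicate 1, lies among the PMA arrays at 9.09, 5.71 and 6.24.

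The remaining calls were of dim probe sets. H2BC4 had 3.72, 3.70, 3.70 and 3.75 in the PMA arrays, against 4.19, 4.28, 4.02 and 4.04 with vehicle, and fell by 0.42 ± 0.11 (adjusted p = 0.00494) with no overlap. The other H2BC4 probe set, also dim, gave -0.16 ± 0.13 and did not pass. H2AJ, an H2A variant on chromosome 12, fell by 0.37 ± 0.13 (adjusted p = 0.0419), with PMA arrays at 3.60 to 4.13 and vehicle arrays at 4.07 to 4.52. The H2AJ call ended when replicate 3 or 4 of vehicle, or 1 or 4 of PMA, was left out (adjusted p from 0.0739 to 0.162). The other H2AJ probe set, also dim, gave -0.11 ± 0.11 and did not pass. With the H2AJ probe sets averaged the call ended too (limma adjusted p = 0.0552). H2AC15 fell by 0.26 ± 0.10, at the edge of the threshold, with PMA arrays at 4.33 to 4.84 and vehicle arrays at 4.75 to 4.92. Leaving out any of 13 of the 16 arrays ended that call, all but vehicle replicate 3, PMA replicate 2 and DOC plus PMA replicate 1. The other H2AC15 probe sets, also dim, gave 0.03 ± 0.11 and 0.07 ± 0.10 and did not pass. With the H2AC15 probe sets averaged the difference was -0.06 and the call ended (limma adjusted p = 0.62).

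The gene that rose, H2BC14, had 2.88, 3.03, 2.99 and 2.92 with PMA, against 2.88, 2.77, 2.76 and 2.64 with vehicle. All PMA arrays were higher, though PMA replicate 1 and vehicle replicate 1 nearly met, and the rise was 0.19 ± 0.07 (adjusted p = 0.0289). Leaving out replicate 2, 3 or 4 of vehicle, or 2 or 3 of PMA, ended that call (adjusted p from 0.0529 to 0.0999). So did leaving out the 3 arrays that deviated together (adjusted p = 0.0663). Its signal lay far below the array medians, with a mean of 2.91.

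Other replication-dependent genes above the array medians did not pass. H2BC12, a core H2B gene, had 11.43, 11.23, 11.41 and 11.31 in the PMA arrays, against 11.53, 11.53, 11.44 and 11.61 with vehicle. All PMA arrays were lower, but the difference of -0.18 ± 0.08 did not pass (95% interval -0.36 to -0.01, adjusted p = 0.11). H2AC8 differed by -0.06 ± 0.07 (95% interval -0.21 to 0.09), and by 0.0046 under cyclic loess and 0.0472 under the common median. H2BC15 stood highest among members above the array medians at 0.18 ± 0.13 (adjusted p = 0.336).

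Of the 5 variant genes above the array medians, all but H1-10 did not pass. H2AZ1, which encodes H2A.Z.1, had 12.88, 12.77, 12.97 and 12.96 with PMA, against 12.94, 12.93, 12.93 and 12.93 with vehicle. The PMA arrays lay on both sides of the vehicle arrays, and the difference was -0.04 ± 0.06 (95% interval -0.17 to 0.10, adjusted p = 0.709), or 0.0691 under the common median. H3-3B, which encodes the replication-independent H3.3, had 12.87, 12.77, 12.79 and 12.77 in the PMA arrays, against 12.69, 12.72, 12.73 and 12.71 with vehicle. Every PMA array was higher, by a mean of 0.09 ± 0.06 (95% interval -0.04 to 0.21, adjusted p = 0.29). H2AX, whose protein is phosphorylated at DNA breaks, differed by 0.05 ± 0.08 (95% interval -0.13 to 0.23), and by -0.0202 without PMA replicate 2. H2AZ2, which encodes H2A.Z.2, differed by -0.13 ± 0.08 (95% interval -0.30 to 0.03, adjusted p = 0.208), and by -0.17 (adjusted p = 0.0116), past the threshold, with its probe sets averaged. The values of H2AZ1, H3-3B and H2AZ2 came from x_at probe sets. Without x_at and s_at probe sets H2AZ2 was read from another probe set and fell by 0.68 (limma adjusted p = 1.39e-06). A further H2AZ2 probe set of neither suffix, also above the array medians, gave 0.05 ± 0.07. The direction for H2AZ2 thus depends on which probe set is read.

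Single probe sets of H2AZ2 and H3-3B did not behave alike, as was seen after their values were known. Of 4 H2AZ2 probe sets above the array medians, 3 gave -0.13 ± 0.08, 0.06 ± 0.09 and 0.05 ± 0.07 for PMA against vehicle. The remaining one had 8.20, 8.21, 8.28 and 8.34 in the PMA arrays, against 8.99, 8.93, 8.90 and 8.93 with vehicle. With that wide gap between the groups it fell by 0.68 ± 0.08 (limma adjusted p = 2.88e-06 over 49293 probe sets). It also fell with DOC plus PMA against DOC, by 0.53 ± 0.08 (adjusted p = 6e-05).

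H3-3B showed the same split. Of its 4 probe sets above the array medians, 3 gave 0.09 ± 0.06, 0.14 ± 0.07 and 0.03 ± 0.07. The other had 9.21, 9.28, 9.33 and 9.33 in the PMA arrays, against 9.77, 9.82, 9.86 and 9.69 with vehicle, and fell by 0.50 ± 0.07 (adjusted p = 3.75e-05). Its fall with DOC plus PMA against DOC was 0.51 ± 0.07 (adjusted p = 3.04e-05). These falls remained past the threshold under cyclic loess (0.63 for H2AZ2 and 0.46 for H3-3B) and under the common median (0.57 and 0.39). The tables used here do not say which transcript or stretch each probe set reads. Of 8 members with several probe sets above the array medians, these 2 had both signs. Of all 49293 probe sets, 14.9% fell and 10.6% rose with PMA against vehicle, and 12.6% fell and 9.58% rose with DOC plus PMA against DOC.

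**Figure D4:**
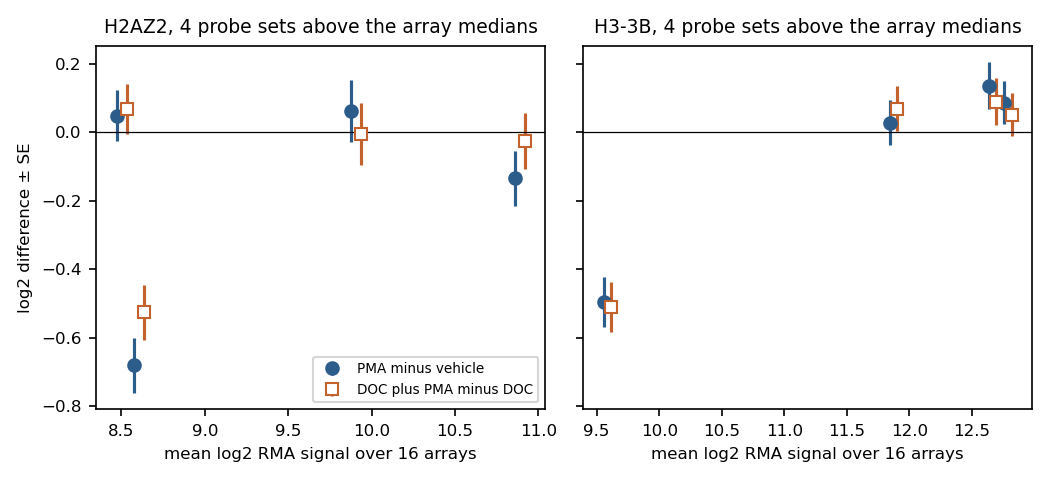
Log2 difference with its SE (vertical axis) of each H2AZ2 and H3-3B probe set above the array medians, against its mean log2 RMA signal over 16 arrays (horizontal axis). Filled circles are PMA minus vehicle and open squares, drawn slightly to the right, DOC plus PMA minus DOC. In each gene 3 probe sets lie near 0 and 1 lies near -0.5 or below.

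PMA in the presence of DOC was compared on arrays that the PMA and vehicle groups do not contain. With DOC plus PMA against DOC, 8 members fell and 0 rose, namely H1-10, H1-2, H2AC11, H2BC5, H2BC21, H3C10, H4C3 and the dim H3C1. Of all genes 17.8% fell and 10.6% rose, and the members' 10.8% that fell is not above that background. Under the common median 1 member, H2AC11, fell and 4 rose, where 11.9% of all genes fell and 3629 of 18132 rose. Above the array medians 7 of 24 fell, beside 26.6% of all genes at that level. By class, 7 of 62 replication-dependent genes and 1 of 12 variant genes fell, with medians over all of them of -0.06 and -0.02, beside -0.02 for all genes. Above the array medians the class medians were -0.11 for 19 replication-dependent and -0.02 for 5 variant genes. The 7 genes that fell in both comparisons make up 63.6% of the 11 that fell without DOC and 87.5% of the 8 that fell with it. The same shares over all genes were not computed, so this overlap is no result about histone genes as a group.

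H2AC11 had 7.74, 7.76, 7.57 and 7.58 in the DOC plus PMA arrays, against 8.38, 8.05, 7.90 and 7.89 with DOC. The groups stood apart, and the fall of 0.39 ± 0.10 (adjusted p = 0.00628) was the largest of the 8. The other H2AC11 probe set, dim at 4.44, gave -0.03 ± 0.12 and did not pass. With the probe sets averaged, the H2AC11 difference was -0.21 and the call ended (adjusted p = 0.0582). H2BC5 had 8.06, 7.96, 8.02 and 7.98 with DOC plus PMA, against 8.32, 8.26, 8.35 and 8.22 with DOC, and fell by 0.28 ± 0.07 (adjusted p = 0.00329) without overlap. The other H2BC5 probe sets, both above the array medians, gave -0.14 ± 0.13 and -0.09 ± 0.09 and did not pass. With the probe sets averaged, the H2BC5 difference was -0.17 and the call ended (adjusted p = 0.09). H1-10 had 10.51, 10.53, 10.64 and 10.61 with DOC plus PMA, against 10.88, 10.98, 10.91 and 10.75 with DOC. Its groups did not overlap here, and it fell by 0.31 ± 0.09 (adjusted p = 0.0111).

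H3C10 had 5.70, 5.73, 5.61 and 5.66 with DOC plus PMA, against 5.71, 6.23, 6.09 and 6.14 with DOC, and fell by 0.37 ± 0.10 (adjusted p = 0.00673). DOC replicate 1, one of the arrays that deviated together, lay among the DOC plus PMA arrays. Without that array H3C10 fell by 0.48. H1-2 had 9.17, 9.01, 9.34 and 9.22 with DOC plus PMA, against 9.09, 9.64, 9.65 and 9.58 with DOC. The same DOC array was the low one, and without it H1-2 fell by 0.44 and still passed. With all arrays, H1-2 fell by 0.31 ± 0.11 (adjusted p = 0.0404). That call ended when replicate 2, 3 or 4 of DOC, or 1, 2 or 4 of DOC plus PMA, was left out. The H2BC21 fall of 0.19 ± 0.07 (adjusted p = 0.0404) ended without DOC replicate 1 or 2, or any DOC plus PMA array. That of H4C3, 0.22 ± 0.08 (adjusted p = 0.0368), ended without any DOC array or DOC plus PMA replicate 1, 2 or 4. Both calls also ended without the 3 arrays that deviated together (limma adjusted p = 0.0718 for H2BC21 and 0.0767 for H4C3). H3C1, named because the count would otherwise be incomplete, fell by 0.28 ± 0.10 (adjusted p = 0.0435) at a mean signal of 2.75. The other H3C1 probe set, also dim, gave 0.04 ± 0.10 and did not pass.

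Of the 11 genes that fell without DOC, 4 did not pass with it. They were H2AC6, H2BC4 at -0.17 ± 0.11 (adjusted p = 0.276), H2AJ at -0.05 ± 0.13 (adjusted p = 0.858) and H2AC15 at -0.16 ± 0.10 (adjusted p = 0.289). H2AC6 had 6.46, 6.45, 6.83 and 6.74 with DOC plus PMA, against 6.24, 7.10, 7.24 and 6.94 with DOC. DOC replicate 1 was the lowest of all 8 arrays, and the difference of -0.26 ± 0.18 did not pass (95% interval -0.65 to 0.12, adjusted p = 0.344). Without that array H2AC6 fell by 0.48 (adjusted p = 0.0264). The interaction of DOC and PMA for H2AC6 was 0.41 ± 0.26 (95% interval -0.13 to 0.96) and did not pass, so no difference between its changes with and without DOC was shown.

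Side by side, 43 of the 74 members were lower with PMA in both comparisons, and 17 of the 24 above the array medians. Across these 24 the changes without and with DOC had a Pearson correlation of 0.735, and across the 50 below the medians it was 0.308. Both are descriptions across genes, which share arrays and scaling within each comparison. The shares of all genes lower in both comparisons were not computed, so the counts of 43 and 17 are not called particular to histone genes. The call count with DOC was the less stable one, at 4 without DOC replicate 2 or DOC plus PMA replicate 4 and 5 without DOC replicate 4 or DOC plus PMA replicate 1.

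**Figure D5:**
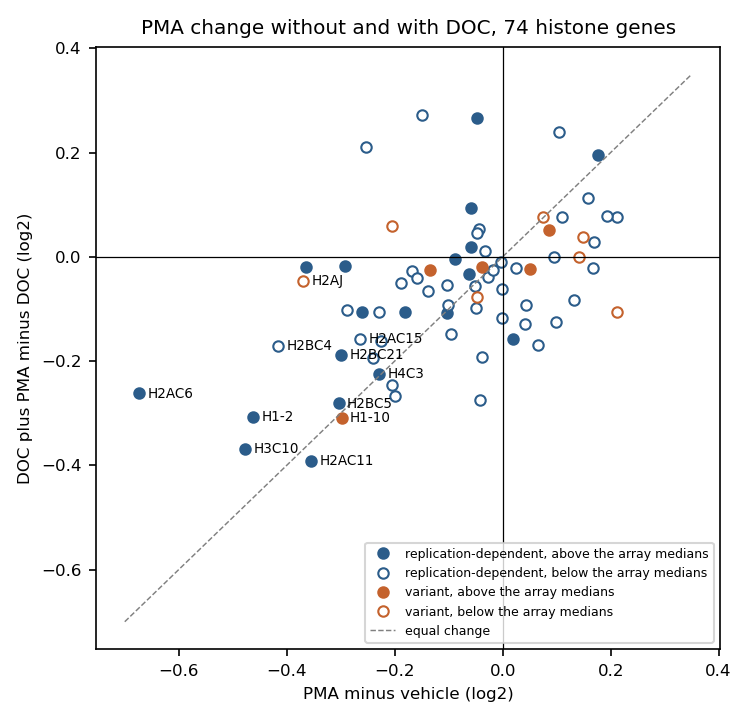
Log2 difference of DOC plus PMA minus DOC (vertical axis) against PMA minus vehicle (horizontal axis) for the 74 histone genes, coloured by class, with filled points for genes above the array medians. Labels mark the 11 genes that fell with PMA against vehicle. H2AC11, H2BC5, H1-10 and H4C3 lie near the dashed line of equal change, and H2AC6 lies farthest left, at -0.67 and -0.26.

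DOC plus PMA against vehicle gave 7 falls and 1 rise, beside 17.3% of all genes lower and 12.3% higher. Under the common median it gave 5 falls and 1 rise, where 12.8% of all genes fell and 4022 of 18132 rose. The 7 were H1-2, H2AC6, H2AC11, H2BC5, H2BC21, H3C10 and H4C3, all replication-dependent and above the array medians, and H2BC14 rose by 0.23 ± 0.07 (adjusted p = 0.0108). This comparison shares its vehicle arrays with PMA against vehicle. H2AC6 fell by 0.52 ± 0.18 (adjusted p = 0.0401), H3C10 by 0.46 ± 0.10 (adjusted p = 0.00113) and H2BC21 by 0.35 ± 0.07 (adjusted p = 0.000457). H1-10 differed by -0.23 ± 0.09 and did not pass (adjusted p = 0.0542).

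DOC moved no histone gene past the limma threshold. Against vehicle 0 of 74 members passed, 5 had an unadjusted p under 0.05 (4.21% of all genes did), and the smallest adjusted p was 0.956, while 0.0772% of all genes passed. The differences ran from -0.29 (H2AC13) to 0.25 (H3C1), with medians of -0.01 for replication-dependent and 0.01 for variant genes. With PMA present, DOC plus PMA against PMA again gave 0 of 74 (0.215% of all genes), with 1 at an unadjusted p under 0.05 (4.43% of all genes), from -0.22 (H1-4) to 0.28 (H2AJ). The mean DOC effect over both PMA levels gave 0 (0.287% of all genes), with 2 unadjusted (4.94%). The interaction gave 0 (0.0607% of all genes), with 4 unadjusted (3.67%). The median SE of a member was 0.10 for DOC against vehicle and 0.15 for the interaction, so small effects would not have been detected with 4 arrays a group.

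Many histone genes start back to back with a neighbour. There were 13 divergent histone pairs whose starts lie under 1000 bases apart. They cover 12 regions because H3C4 and H2AC7 share a start beside H2BC7. H2BC4 and H2AC6 were the 1 pair in which both genes fell with PMA against vehicle, by 0.42 and 0.67. Both were read from s_at probe sets, and neither passed with DOC plus PMA against DOC. H2BC4 was dim, and its other probe set did not pass. In 3 other pairs 1 gene fell. H2AC11 fell by 0.35 while its partner H2BC11, at -0.26 ± 0.17, did not pass. H2BC21 fell by 0.30 and H2AC20 stood at 0.02 ± 0.12, although both were above the array medians. H2AC15 fell by 0.26 and H2BC15 stood at 0.18 ± 0.13. In 3 of the 13 pairs both genes were above the array medians, which limits what can be compared. Of all genes 19.6% fell in this comparison, and no background for pairs was computed. The counts are therefore no result about shared promoters.

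Transcripts for proteins that make and process histone mRNA moved in both directions with PMA. In this list 6 of 18 tested genes rose and 6 fell against vehicle, and 6 rose and 4 fell with DOC plus PMA against DOC. Nearly all genes of this and the next 4 lists lay above the array medians, where 17% of all genes rose and 29.6% fell with PMA against vehicle, and 15.5% rose and 26.6% fell with DOC plus PMA against DOC. No list is called particular from its counts. The largest changes were of LSM10, a subunit of the U7 particle that directs histone mRNA cleavage, which fell by 0.63 ± 0.08 (adjusted p = 2.43e-06), and SRRT (ARS2), which binds the cap-binding complex and rose by 0.48 ± 0.10 (adjusted p = 0.000758). NCBP2, the small cap-binding subunit, rose by 0.42 ± 0.07, and CPSF3, the nuclease that cuts the mRNA end, fell by 0.39 ± 0.06. SLBP, the stem-loop binding protein, and NPAT, the coactivator of histone loci, were picked for their roles after their values were seen. SLBP fell by 0.22 ± 0.06 (adjusted p = 0.00587) and NPAT differed by 0.13 ± 0.08 (adjusted p = 0.23).

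Histone chaperones and deposition factors gave 1 rise and 6 falls among 28 genes, and 0 rises and 5 falls with DOC plus PMA against DOC. The falls are not above the background of 29.6% and 26.6%. ASF1B, a chaperone of new H3 and H4, fell by 0.40 ± 0.08 (adjusted p = 0.000541), and CHAF1B, a subunit of the replication-coupled assembly factor CAF-1, by 0.29 ± 0.06 (adjusted p = 0.00129). VPS72, which carries H2A.Z, fell by 0.39 ± 0.10 (adjusted p = 0.00663), and SRCAP, the remodeller that inserts H2A.Z, rose by 0.39 ± 0.15 (adjusted p = 0.0463).

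Genes of DNA replication and S phase split as well, with 6 of 24 rising and 5 falling against vehicle, beside 17% and 29.6% of all genes above the array medians. RRM2, which makes deoxynucleotides, rose by 0.73 ± 0.08 (adjusted p = 1.3e-06), CCNE2, a cyclin of S phase entry, by 0.60 ± 0.12 (adjusted p = 0.000429) and CDC25A, a phosphatase that activates CDK2, by 0.52 ± 0.07 (adjusted p = 1.22e-05). MCM2, part of the replicative helicase and an H3 and H4 binder, fell by 0.45 ± 0.07 (adjusted p = 6.13e-05). With DOC plus PMA against DOC, 6 of the 24 rose and 4 fell. S phase itself was not measured here.

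Among kinases of histone H3 and of mitotic histone phosphorylation, 4 of 9 rose and 1 fell with PMA against vehicle, beside the same 17% and 29.6%. PIM1 rose by 1.68 ± 0.09 (adjusted p = 3.55e-11), RPS6KA3 (RSK2) by 1.17 ± 0.08 (adjusted p = 1.42e-09), HASPIN by 0.50 ± 0.09 (adjusted p = 0.000203) and RPS6KA5 (MSK1) by 0.47 ± 0.08 (adjusted p = 7.29e-05). Of 3 histone variants whose symbols the prefixes miss, MACROH2A2 fell by 0.59 ± 0.09 (adjusted p = 6.15e-05) and CENPA, the centromeric H3, by 0.27 ± 0.07 (adjusted p = 0.00361). MACROH2A1 differed by 0.02 ± 0.07. With DOC plus PMA against DOC, 4 of the 9 kinases rose and 1 fell, and 2 of these 3 variants fell, beside 15.5% higher and 26.6% lower of all genes above the array medians.

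No gene of these 5 lists passed for DOC against vehicle, DOC plus PMA against PMA or the interaction. Marker lists of other cells were dim in every group. The log2 of the summed signal of 4 leukocyte markers was 6.11 to 6.29 in PMA arrays and 5.76 to 6.02 in vehicle arrays. For 3 endothelial markers it was 5.78 to 5.99 with PMA and 5.38 to 5.64 with vehicle, and for 3 fibroblast markers 4.90 to 5.03 with PMA and 4.90 to 5.29 with vehicle. The 5 HEK293 markers summed to 13.27 to 13.51 with PMA and 13.06 to 13.28 with vehicle, with 2 rising and 1 falling. Every PMA array lay above every vehicle array in the leukocyte and endothelial sums, where 2 markers each rose (CORO1A, CD68, TIE1 and PECAM1), at levels below the array medians. With DOC plus PMA against DOC the leukocyte sum was 6.09 to 6.28 against 5.81 to 6.03, while the endothelial sum was 5.66 to 5.79 against 5.73 to 5.82. The endothelial sum with DOC alone thus also lay above every vehicle array, and it was not higher with DOC plus PMA than with DOC. The part of these markers in the histone results was not tested.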

How the data were processed

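Gene expression was measured on 16 Affymetrix PrimeView arrays. Per the labels' protocols, 100 ng of total RNA entered a 3' IVT kit. The deposited values are log2 signals; the submitters' processing notes name RMA and Affymetrix Expression Console, without versions. RMA gives all arrays a common distribution, which hides any shift shared by the whole transcriptome. Of 49293 probe sets, 44988 name 1 gene, 1832 several and 2473 none in the platform annotation. A current gene was found for 44961 of those naming 1, and the rest kept their annotated symbol. All 44988 were used, giving 18132 genes.

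Group means were fitted with limma 3.58.1 (R 4.3.3), lmFit and eBayes, with all 16 arrays and no filter on dim genes, so that each member was tested. A gene passed when its two-sided p, adjusted by Benjamini-Hochberg across the 18132 genes, was under 0.05. Errors are SE of the fit (n = 4 arrays a group), and precision is limited by that number. On simulated data for PMA against vehicle (18132 genes), 20.9%, 67.2% and 100% of genes changed by 0.3, 0.5 and 1 were recovered, with 8 of 133 calls false. Only 67, 67 and 66 genes were changed there, with independent normal noise, while 2277 genes rose and 3559 fell in the data. The adjusted threshold depends on that number, so these shares do not measure the sensitivity of the real PMA comparison.

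The members and lists were chosen with earlier results of these data known. Named were up to 14 members past the threshold for PMA, up to 8 for the DOC contrasts, the 6 with the highest mean in each class, and up to 4 genes of each list. Pair partners, ends of ranges and genes said to be chosen later fall outside this rule. Lists covered histone transcription and mRNA processing, chaperones, DNA replication, and kinases of H3 and of mitotic histone phosphorylation. They also covered variants outside the symbol rule, and markers of HEK293, leukocyte, endothelial and fibroblast cells. Motifs were searched on both strands of RefSeq promoters (GRCh38.p14). Alternatives were scaling, filters, probe-set choice, array weights, an intensity trend, a replicate block and leaving out arrays. Replicate numbers were not taken to pair arrays, since in no pair of groups did all 4 same-number correlations of deviations exceed 0.1.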

Additional observations from a re-analysis of the deposited data

Results flagged for a closer look

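Of 80 sets of 4 arrays checked (named members and class medians in each group), 7 had an array whose gap to the nearest other, divided by the range, exceeded Dixon's critical value at the 95% level. Chance gives about 1 in 20 such sets. H1-2 in DOC replicate 1 was 9.0919, against 9.58 to 9.65 in the other DOC arrays, and this array is one of the 3 that deviated together. H2AX in PMA replicate 2, another of those 3, was 12.7537, against 12.45 to 12.50 in the other PMA arrays. H2AX in vehicle replicate 2 was 12.6057, against 12.44 to 12.47. The median of the 12 variant genes in PMA replicate 4 was 3.8843, against 4.04 to 4.07. In DOC plus PMA, H2BC21 was 6.4979 in replicate 3, H2AC15 was 4.4662 in replicate 1 and H2BC14 was 2.9319 in replicate 1, each below the other 3 arrays. No member passed the test of the interaction of DOC and PMA.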

How the results depend on the processing

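RMA values were rescaled in 2 ways. The common median adds 0.107 to every difference of PMA against vehicle, so the median of all genes moves to 0.107, and to 0.09 for DOC plus PMA against DOC. The share of called genes that were higher was 39% for PMA against vehicle, 46.6% under cyclic loess and 65.1% under the common median; for DOC plus PMA against DOC it was 37.3%, 44.3% and 62.7%, and for DOC plus PMA against vehicle 41.5%, 47.9% and 63.4%. Under the common median 7 members fell and 5 rose for PMA against vehicle, and 1 fell and 4 rose for DOC plus PMA against DOC, where the falls of H1-2, H1-10, H2BC5, H2BC21, H3C10 and H4C3 no longer passed. Members past the threshold for PMA against vehicle numbered 12, and 7 without x_at and s_at probe sets, where 58 members could be tested. For DOC plus PMA against DOC they numbered 8, and 5 under the common median, 5 with probe sets averaged, 4 without x_at and s_at probe sets, 5 with only the arrays of the contrast and 13 for the PMA effect averaged over both DOC levels, which was chosen after seeing the data. With single arrays left out these counts ran from 9 to 13 and from 4 to 8; for DOC plus PMA against vehicle, from 6 to 9. The replicate block gave 14 (1 rose, 13 fell) for PMA against vehicle, 8 for DOC plus PMA against DOC, 9 for DOC plus PMA against vehicle and 0 for every DOC contrast, so the replicate numbers changed no count by over 1.5 times. The median of replication-dependent genes for PMA against vehicle was 0.0458 under the common median, -0.2252 with the filter at the 40th percentile and -0.2798 over genes at or above the median level. For DOC plus PMA against DOC it was 0.0464 under the common median and -0.1728 over genes at or above the median level, and for DOC plus PMA against vehicle 0.0172 and -0.2316. The cause was not tested, apart from fewer genes entering the filtered medians.

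Of the values of named members under other settings, 862 kept direction and call, 82 lost the call, 12 gained it and 30 turned sign. For PMA against vehicle, H2BC21 turned to 0.0742 with probe sets averaged and H3-3B to -0.0612. H2AC8 turned to 0.0046 under cyclic loess and 0.0472 under the common median, and H2AZ1 to 0.0691 under the common median. Without the 3 arrays that deviated together, and without PMA replicate 2 alone, H2AZ1 was 0.004 and H2AX -0.0202. For DOC plus PMA against DOC under the common median, H2AJ was 0.0632, H2BC12 0.0037, H2AZ1 0.0907, H2AX 0.0864 and H2AZ2 0.0837. With probe sets averaged H2AZ1 was 0.0427 and H3-3B -0.0753, and without x_at and s_at probe sets H2AZ1 was 0.0121. Without the 3 arrays H2AJ was 0.0395 and H2AX 0.009, and with array weights H2AX was 0.0073. Averaged over both DOC levels H2AC8 was -0.0207 and H2AX 0.0137. With single arrays left out, H2AJ ran from -0.1581 to 0.0275 (turning at 0.0157 too), H2AC8 from -0.041 to 0.064, H2AZ1 from -0.0435 to 0.0057, H2AX from -0.0606 to 0.0373 (turning at 0.0177 too) and H2AZ2 from -0.0863 to 0.0051 (turning at 0.0013 too); for PMA against vehicle, H2AZ1 ran from -0.0618 to 0.004 and H2AX from -0.0202 to 0.0888. Among these, H2BC21 alone had passed the test; without x_at and s_at probe sets H1-10 gave -0.06 and -0.07 and did not pass.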

Other observations

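The PMA effect averaged over both DOC levels, a contrast chosen after seeing the data, sets 8 arrays against 8. In it 12 histone genes fell and 1 rose, beside 24.5% of all genes lower and 16.1% higher. The H4 genes H4C4 and H4C9, which did not pass for PMA against vehicle or DOC plus PMA against DOC, passed here, and H2AJ did not. These names were chosen after their values were seen. The other H4C9 probe set, an x_at one with a mean of 3.59, fell with PMA against vehicle by 0.34 ± 0.09 (limma adjusted p = 0.0123 over 49293 probe sets). It also fell with DOC plus PMA against DOC, by 0.31 ± 0.09 (adjusted p = 0.0232). The H4C9 call thus depends on which probe set is read.

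Probe sets that name several genes, and so were given no single gene, numbered 15 with a histone among their genes, and 8 of them lay above the array medians. For PMA against vehicle 2 of the 15 fell and 0 rose, with differences from -0.80 to 0.30, beside 14.9% of all probe sets lower and 10.6% higher. For DOC plus PMA against DOC 1 fell and 2 rose, beside 12.6% lower and 9.58% higher, and both that rose averaged near 2.3. The 9 members known mainly from testis or oocyte had no call for PMA against vehicle by limma (1 at an unadjusted p under 0.05), with differences from -0.20 (H2BW1) to 0.21 (H1-7).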
